A study of Mus musculus with 6 samples.

Results

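The genes described here are 10 components of BMP signaling and its readout, namely the ligand gene *Bmp4*, its extracellular antagonist *Grem1*, the type I receptor gene *Bmpr1a*, the transducer gene *Smad3*, the inhibitory SMAD genes *Smad6* and *Smad7*, and the 4 inhibitor of DNA binding (ID) genes *Id1*, *Id2*, *Id3* and *Id4*. They were chosen by gene symbol, and all 10 were matched among the 54331 genes listed. RNA-seq of polyA RNA had been performed on 6 wells of mouse embryonic fibroblasts (MEFs) undergoing reprogramming at 10 days postinfection (dpi), with 3 wells in each of 2 groups. The fibroblasts were pooled from male E13.5 embryos that carried an Oct4-EGFP transgene on a mixed background of C57BL/6, DBA/2 and ICR. Every well of both groups received retroviruses for Oct4, Sox2, Klf4 and AKT-MER, in which AKT is joined to an altered estrogen receptor and is switched on by 4-hydroxytamoxifen (4OHT), and was kept in medium with LIF.

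The OSKA + 4OHT group was given 4OHT from replating onwards, so that AKT was activated, and the OSKA − 4OHT group was given the ethanol vehicle. The comparison addresses which transcripts differ when AKT is activated during reprogramming. Libraries without AKT-MER were not analysed here, so an action of 4OHT itself and AKT activation cannot be told apart in these values. The wells were taken whole, without sorting. The labels do not say that the wells of a group came from separate pools of embryos. The study's methods describe mixed embryos, and infected cells that were replated into the wells of both groups. P-values therefore measure only the spread between wells, which may be technical, and not that between independent cultures.

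BMP ligands bind a complex of type I and type II receptor kinases, which phosphorylates SMAD1, SMAD5 and SMAD9. These enter the nucleus with SMAD4 and switch on target genes, among them the ID genes and the feedback inhibitors SMAD6 and SMAD7, while SMAD2 and SMAD3 carry TGF-β and activin signals. ID proteins hold basic helix-loop-helix (bHLH) factors away from DNA, and in mouse embryonic stem cells BMP acts with LIF through ID proteins to hold back differentiation.

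In the GENCODE annotation of GRCm38, *Id4* lies on chromosome 13 (chr13:48261228-48266026), *Id1* and *Grem1* on chromosome 2 (chr2:152736251-152737410 and chr2:113746164-113758646), *Id2* on chromosome 12 (chr12:25093799-25097140) and *Id3* on chromosome 4 (chr4:136143497-136145755). *Bmp4* and *Bmpr1a* lie on chromosome 14 (chr14:46383520-46390669 and chr14:34410734-34503341), *Smad3* and *Smad6* on chromosome 9 (chr9:63646767-63757994 and chr9:63953076-64022059), and *Smad7* on chromosome 18. The 3 genes *Id1*, *Id3* and *Id4* are read from the plus strand, like *Smad7*, and the other 6 from the minus strand. Each value below covers all exons of the annotated transcripts of a gene.

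Of these 10 genes, *Id4* was the single one that passed the test, and its level rose 1.95-fold in the OSKA + 4OHT group. The TPM (transcript abundance corrected for transcript length and scaled to a fixed total per well) of *Id4*, an ID family member that is expressed in neural progenitors and spermatogonial stem cells, was 17.2, 21.2 and 15.1 in OSKA − 4OHT replicates 1, 2 and 3, and 34.5, 40.0 and 31.1 in OSKA + 4OHT replicates 1, 2 and 3. The lowest OSKA + 4OHT well lay above the highest OSKA − 4OHT well. In bulk RNA from a whole well, such a difference can lie in the number of cells of a type or in the RNA per cell, and these cannot be told apart. The group means were 17.9 ± 3.11 and 35.2 ± 4.47 TPM (SD, n = 3 each). The log2 fold change on the scale of log2(TPM + 0.5) was 0.97 with a standard error of 0.20 (1.95-fold, 95% interval 1.40 to 2.71), at an adjusted p of 0.0455 by limma-trend with Benjamini-Hochberg adjustment over 15382 genes whose mean reached 1 TPM. This call was close to the threshold of 0.05. It was lost in each of the 6 fits that left out 1 well, with adjusted p between 0.0737 and 0.155 and a log2 fold change between 0.86 and 1.09, and it was also lost after TMM scaling, which aligns wells by trimmed log ratios (0.84, adjusted p = 0.0531, limma-trend with Benjamini-Hochberg adjustment).

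The *Id4* promoter is shown because it belongs to the member that rose, beside a stretch of each other member promoter that holds the same short motif. The capitals mark GGCGCC, a GC-rich element through which SMAD1 and SMAD5 are known to bind BMP target genes. The sequences are from RefSeq on GRCm38.p6, 5′ to 3′ on the strand of the gene. The *Id4* sequence is the 250 bases just before the start that the RefSeq table uses (chr13:48260866-48261115, plus strand), which lies upstream of the GENCODE start given above. No GENCODE exon lies in these bases. For *Id2* (chromosome 12, minus strand), *Bmpr1a* (chromosome 14, minus strand) and *Grem1* (chromosome 2, minus strand), 30 bases around the motif are given. Unlike that of *Id4*, the 250-base stretches of *Id2* and *Bmpr1a* lie inside the GENCODE spans given above, as does that of *Id3*. That of *Grem1* lies upstream of its span.
Id4 promoter: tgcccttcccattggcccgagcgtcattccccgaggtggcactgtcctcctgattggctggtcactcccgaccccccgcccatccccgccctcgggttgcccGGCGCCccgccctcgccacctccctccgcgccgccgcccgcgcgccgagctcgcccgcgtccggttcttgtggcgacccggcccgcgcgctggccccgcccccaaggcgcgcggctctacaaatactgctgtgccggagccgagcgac
Id2 window: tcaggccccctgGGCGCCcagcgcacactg
Bmpr1a window: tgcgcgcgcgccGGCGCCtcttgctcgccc
Grem1 window: cgcggcggcgacGGCGCCtgaccaatggag

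Promoter sequences were matched for 8 of the 10 members, without *Id1* and *Smad7*. GGCGCC, which reads the same on both strands, was found in 4 of the 8, with its first base at position −148 for *Id4*, −231 for *Id2*, −198 for *Bmpr1a* and −78 for *Grem1*, counted from −1 just before the RefSeq start. It was present in 9.59% of 32851 promoters of the same 250 bases, and in 29.2% of the 7115 promoters with a GC content of at least 62.8%, the lowest among the 8 members. The match therefore did not separate *Id4*, which rose, from *Id2*, *Bmpr1a* and *Grem1*, which did not pass the test. The palindrome GTCTAGAC, to which SMAD3 and SMAD4 are known to bind, was in 0.167% of the promoters, and GGCGCC followed after 5 bases by GTCT on either strand was in 0.0700%. Neither of these was found in the 250 bases of the 8 members.

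**Figure D1:**
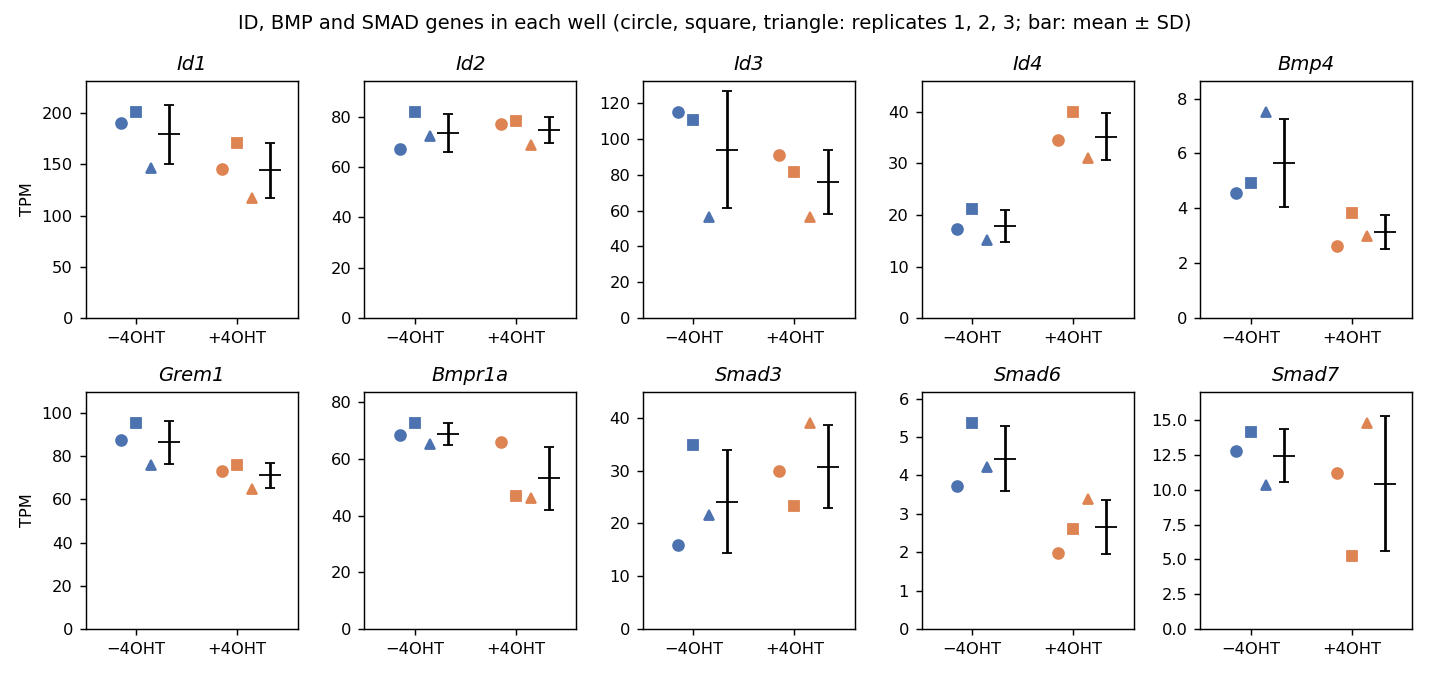
TPM of the 10 genes in each well, with circles, squares and triangles for replicates 1, 2 and 3, blue for OSKA − 4OHT and orange for OSKA + 4OHT, and a black bar for the mean ± SD. The groups are apart for *Id4*, which is higher with 4OHT, and for *Bmp4*, *Grem1* and *Smad6*, which are lower, and they overlap for the other 6 genes.

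The other ID genes, which are among the best known direct BMP targets, were expressed at higher levels than *Id4* and did not differ detectably between the groups. Without 4OHT, *Id1* stood at 190.4, 200.8 and 146.4 TPM in replicates 1 to 3, and with 4OHT it stood at 145.1, 170.5 and 116.6 TPM. The groups overlapped. For *Id1* the log2 fold change was −0.32 ± 0.20 (SE), with a 95% interval from −0.79 to 0.15 and an adjusted p of 0.414 (limma-trend, Benjamini-Hochberg). *Id2*, whose product also restrains lymphoid bHLH factors, was at 67.0, 81.9 and 72.2 TPM without 4OHT and at 77.2, 78.4 and 68.7 TPM with it. The OSKA + 4OHT wells lay inside the OSKA − 4OHT range, and the log2 fold change of *Id2* was 0.02 with a 95% interval from −0.32 to 0.36 (adjusted p = 0.948, limma-trend with Benjamini-Hochberg adjustment). As a ratio, this interval for *Id2* runs from 0.803-fold to 1.29-fold.

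*Id3*, which is often co-regulated with *Id1*, was at 115.0, 110.5 and 56.4 TPM without 4OHT and at 90.8, 81.6 and 56.3 TPM with it. The lowest wells of both groups were nearly equal, and the spread in the OSKA − 4OHT group was wide (94.0 ± 32.6 TPM, SD, n = 3). The log2 fold change of *Id3* was −0.26, and its 95% interval from −1.05 to 0.53 would contain a change as large as that of *Id4* in the opposite direction (adjusted p = 0.692, limma-trend with Benjamini-Hochberg adjustment). For *Id1* and *Id3*, replicate 3 was the lowest well in each group.

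Summed over *Id1* to *Id4*, ID transcripts came to 389.6, 414 and 290.1 TPM in the OSKA − 4OHT wells and to 348, 370.5 and 273 TPM in the OSKA + 4OHT wells, and the groups overlapped. The share of this sum held by *Id4* was 4.42%, 5.12% and 5.21% without 4OHT and 9.93%, 10.8% and 11.4% with 4OHT. *Id1* held the largest share in every well, from 48.5% to 50.5% without 4OHT and from 41.7% to 46.0% with 4OHT. The log2 ratio of *Id4* to *Id1* differed by 1.30 between the groups (−3.33 ± 0.12 and −2.02 ± 0.10, SD, n = 3 each), and the groups did not overlap. The exact two-sided permutation test gave p = 0.1 for this ratio, the smallest value that 3 wells against 3 allow with 20 arrangements. The ratios of *Id4* to *Id2* and *Id4* to *Id3* differed by 0.96 and 1.25 on the log2 scale, each without overlap and with the same exact permutation p of 0.1. These ratios are within each well and do not depend on how the wells were scaled to one another.

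**Figure D2:**
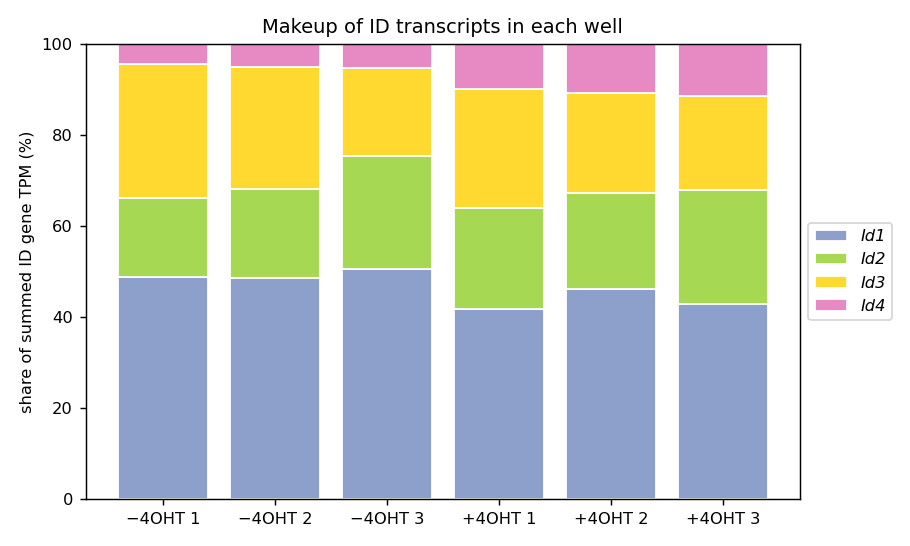
Share of the summed TPM of *Id1*, *Id2*, *Id3* and *Id4* in each well, in percent, with 1 stacked bar per well. The *Id4* segment spans 4.42% to 5.21% in the OSKA − 4OHT wells and 9.93% to 11.4% in the OSKA + 4OHT wells.

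The ligand gene *Bmp4* was expressed at a low level in all wells. Its TPM was 4.58, 4.91 and 7.51 without 4OHT, in the order of the replicates, and 2.63, 3.84 and 2.98 with 4OHT. Every OSKA + 4OHT well lay below every OSKA − 4OHT well. For *Bmp4* the log2 fold change was −0.74 ± 0.31 (SE) with a 95% interval from −1.48 to 0.003, and it did not pass (adjusted p = 0.236, limma-trend with Benjamini-Hochberg adjustment). *Grem1*, which encodes a secreted protein that binds BMP2, BMP4 and BMP7 and keeps them from their receptors, was at 87.6, 95.6 and 76.0 TPM without 4OHT and at 73.0, 75.8 and 64.7 TPM with 4OHT. The highest OSKA + 4OHT well was just under the lowest OSKA − 4OHT well, with a log2 fold change of −0.28 ± 0.15 (SE; adjusted p = 0.350, limma-trend with Benjamini-Hochberg adjustment). The ratio of *Grem1* to *Bmp4* TPM, an antagonist over a ligand, was 19.2, 19.5 and 10.1 without 4OHT and 27.8, 19.8 and 21.7 with 4OHT.

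*Bmpr1a*, which encodes the type I receptor kinase that BMP2 and BMP4 bind, was at 68.5, 72.8 and 65.2 TPM without 4OHT. It was at 66.1, 47.0 and 46.4 TPM with 4OHT, so that replicate 1 of that group lay within the OSKA − 4OHT range and the others below it. *Bmpr1a* had a log2 fold change of −0.39 with a 95% interval from −0.83 to 0.05 (adjusted p = 0.285, limma-trend with Benjamini-Hochberg adjustment). *Bmpr1a* is overlapped on the opposite strand by the antisense gene *Gm17110*, which was at most at 1.28 TPM.

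*Smad3*, the transducer of TGF-β and activin signals, was at 15.9, 34.9 and 21.5 TPM without 4OHT and at 29.9, 23.3 and 39.1 TPM with 4OHT. The values overlapped widely, and the log2 fold change was 0.39 with a 95% interval from −0.42 to 1.20 (adjusted p = 0.561, limma-trend with Benjamini-Hochberg adjustment). *Smad6*, whose product inhibits BMP signaling, among other ways by blocking type I receptors, was at 3.71, 5.37 and 4.23 TPM without 4OHT and at 1.97, 2.60 and 3.39 TPM with 4OHT. The groups did not overlap. *Smad6* had a log2 fold change of −0.66 ± 0.32 (SE), with a 95% interval from −1.43 to 0.12, and it did not pass (adjusted p = 0.306, limma-trend with Benjamini-Hochberg adjustment). *Smad7*, the inhibitor of both BMP and TGF-β receptors, was at 12.8, 14.1 and 10.4 TPM without 4OHT and at 11.2, 5.22 and 14.8 TPM with 4OHT. Replicate 2 of the OSKA + 4OHT group was the lowest of the 6 wells and replicate 3 of the same group the highest. The log2 fold change of *Smad7* was −0.35 with all wells and 0.06 without OSKA + 4OHT replicate 2, so that this well set its sign (adjusted p = 0.647 with all wells, limma-trend with Benjamini-Hochberg adjustment).

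Among the 10 members, 1 passed higher and 0 passed lower. Over all tested genes, 3.52% passed higher, 1.97% passed lower and 5.49% passed in either direction, and 1 of 10 is too few to read against these shares. An unadjusted p under 0.05 was found for 1 of the 10 members, *Id4*, against 21.3% of all tested genes. Wells of the groups were fully apart in 1 member that was higher and in 3 members that were lower, against 18.1% and 10.0% of all tested genes. The log2 fold change was above 0 in 3 members and below 0 in 7, with a median of −0.30 beside a median of 0.14 over all tested genes. Of all 15382 tested genes, 9129 were above 0 and 6253 below. In all, 542 genes rose and 303 fell (64.1% of the calls were rises), while after TMM scaling 457 rose and 477 fell (48.9%), and after quantile normalization 428 rose and 434 fell (49.7%). Leaving out 1 well lowered the total of 845 to between 175 (without OSKA + 4OHT replicate 1) and 465 (without OSKA − 4OHT replicate 3). The scalings moved the median of all genes to 0.03 and to −0.01, and under them the sign of *Id2* turned (−0.11 and −0.08), while the other 9 members kept theirs.

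**Figure D3:**
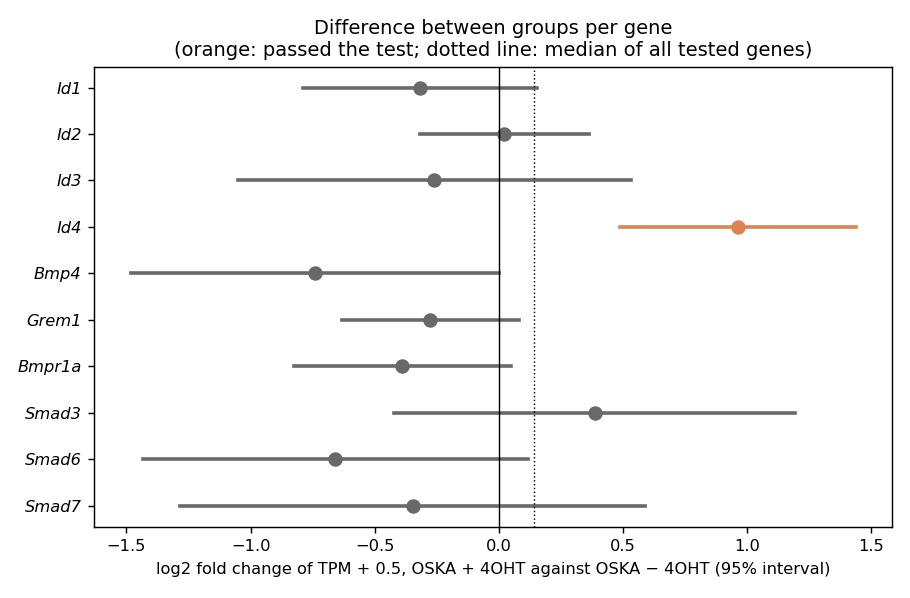
Log2 fold change of TPM + 0.5 between OSKA + 4OHT and OSKA − 4OHT for the 10 genes, with 95% intervals (n = 3 wells per group), a solid line at 0 and a dotted line at the median of all tested genes, 0.14. *Id4* at 0.97 is the gene whose interval lies wholly above 0, and the intervals of the other 9 reach across 0.

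Since TPM is a value per transcript length, levels can be set side by side between genes. Averaged over the 6 wells, *Id1* was highest at 162 TPM (the 94.6th percentile of tested genes), followed by *Id3* at 85.1, *Grem1* at 78.8, *Id2* at 74.2 and *Bmpr1a* at 61.0 TPM. *Id1* stood above all others in every well. Of the next 4, *Id3*, *Grem1* and *Id2* overlapped one another within each group. *Bmpr1a* overlapped *Id3* in both groups, but it lay wholly below *Grem1* without 4OHT and wholly below *Id2* with 4OHT. *Smad3* and *Id4* came next at 27.4 and 26.5 TPM and also overlapped, with *Id4* below *Smad3* on average without 4OHT (17.9 and 24.1 TPM) and above it with 4OHT (35.2 and 30.7 TPM). *Smad7* followed at 11.4 TPM, and *Bmp4* at 4.41 and *Smad6* at 3.55 TPM, which overlapped each other, were at the 26.0th and 22.0th percentile.

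Genes of the rest of the pathway were taken from 8 lists by role, which hold 85 genes with the members included, of which 84 were matched and 68 were tested. Of the 68, 3 rose (*Id4*, *Sostdc1* and *Tcf3*) and 5 fell (among them *Bmpr2*, *Skil*, *Ccn2* and *Col1a2*), which is 4.41% and 7.35%, beside 3.52% and 1.97% of all tested genes. Wells of the groups were fully apart in 7 genes that were higher and 28 that were lower, or 10.3% and 41.2% of the 68, beside 18.1% and 10.0% of all tested genes. The median log2 fold change was −0.35, beside 0.14 over all tested genes. These counts moved with the processing, to 2 higher and 11 lower after TMM scaling and to 1 higher and 9 lower after quantile normalization. Leaving out any 1 well lowered the total from 8, to 3 without OSKA + 4OHT replicate 1 or 2, to 4 without OSKA − 4OHT replicate 2 or 3, and to 5 without OSKA − 4OHT replicate 1 or OSKA + 4OHT replicate 3. The lists were chosen with results of these data known, and these counts describe them only.

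Of the 6 tested BMP ligand genes, 0 passed, and 1 had an unadjusted p under 0.05, a level that 21.3% of all tested genes reached. That gene, *Bmp8a*, a ligand gene known for its part in germ cell development, was at 2.10, 1.68 and 2.37 TPM without 4OHT and at 0.23, 0 and 0.80 TPM with 4OHT, without overlap (adjusted p = 0.182, limma-trend with Benjamini-Hochberg adjustment). *Bmp8a* reached the filter of 1 TPM only through the OSKA − 4OHT wells (means of 2.05 and 0.345 TPM), so no conclusion is drawn from its difference. The ligand genes that were not tested had a mean under 1 TPM.

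Of 10 tested receptor and co-receptor genes, 9 had a log2 fold change below 0, and 1 fell. Over all tested genes, 6253 of 15382 were below 0 and 1.97% fell, and 1 of 10 is too few to read against the latter. *Bmpr2*, the type II receptor that pairs with BMPR1A, was at 41.5, 42.4 and 42.3 TPM without 4OHT and at 23.8, 22.0 and 20.8 TPM with 4OHT. The wells of each group were close together and far from those of the other group. *Bmpr2* had a log2 fold change of −0.91 ± 0.14 (SE; adjusted p = 0.0220, limma-trend with Benjamini-Hochberg adjustment), and its adjusted p was between 0.0606 and 0.0882 when 1 of the wells was left out. The type I receptor gene *Acvr1* was at 115, 56.6 and 55.2 TPM without 4OHT and at 32.2, 28.5 and 24.5 TPM with 4OHT, and *Bmpr1b*, another type I receptor gene, was at 2.96, 2.28 and 3.58 TPM without 4OHT and at 0.36, 0.64 and 0.53 TPM with 4OHT. Neither group pair overlapped, and neither gene passed (adjusted p = 0.0662 and 0.0807, limma-trend, Benjamini-Hochberg). *Acvr1* passed after TMM scaling (0.0483) and quantile normalization (0.0491), and *Bmpr1b* after quantile normalization (0.0475) and with no trend in the variance (0.0197). *Bmpr1b* reached the filter of 1 TPM only through the OSKA − 4OHT wells (means of 2.94 and 0.510 TPM), so no conclusion is drawn from its difference. The 4 type I receptor genes *Bmpr1a*, *Bmpr1b*, *Acvr1* and *Acvrl1* summed to 219, 153 and 145 TPM without 4OHT and to 117, 97.0 and 82.4 TPM with 4OHT. The share of this sum held by *Bmpr1a* was 31.3%, 47.7% and 44.9% without 4OHT and 56.6%, 48.4% and 56.3% with 4OHT.

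Of 15 tested antagonists and extracellular modulators, 1 rose and 0 fell, while 8 (53.3%) were lower without overlap. Over all tested genes, 3.52% rose, 1.97% fell and 10.0% were lower without overlap. *Sostdc1*, a secreted antagonist of BMP and Wnt signaling, was at 20.9, 24.1 and 17.4 TPM without 4OHT and at 91.4, 89.3 and 75.6 TPM with 4OHT. Its log2 fold change of 2.02 ± 0.18 (SE; adjusted p = 0.00423, limma-trend with Benjamini-Hochberg adjustment) was above that of *Id4*.

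Among the 6 SMAD transducer genes, *Smad3* included, 0 passed and 0 had an unadjusted p under 0.05, beside the 21.3% of all genes. *Smad5*, a BMP transducer, was at 21.4, 22.0 and 20.7 TPM without 4OHT and at 18.6, 19.6 and 20.5 TPM with 4OHT, and *Smad9*, another, was at 1.56, 1.47 and 1.68 TPM without 4OHT and at 0.58, 0.66 and 0.11 TPM with 4OHT. Neither overlapped between the groups (adjusted p = 0.675 and 0.308, limma-trend, Benjamini-Hochberg). *Smad9* reached the filter of 1 TPM only through the OSKA − 4OHT wells (means of 1.57 and 0.447 TPM), so no conclusion is drawn from its difference. Over all tested genes, 6253 of 15382 had a log2 fold change below 0 and 1.97% fell. Of the 12 inhibitory SMADs and SMAD regulators, *Smad6* and *Smad7* included, 11 had a log2 fold change below 0 and 1 fell. That gene was *Skil*, whose product SnoN holds SMAD complexes in check, at 43.8, 52.0 and 64.4 TPM without 4OHT and at 17.7, 19.0 and 16.5 TPM with 4OHT (log2 fold change −1.55, adjusted p = 0.0110, limma-trend with Benjamini-Hochberg adjustment). Its adjusted p was 0.0562 without OSKA + 4OHT replicate 1, 0.0507 without OSKA + 4OHT replicate 2 and 0.0786 with the replicate block. *Smurf1*, a ubiquitin ligase for BMP SMADs and receptors, was at 53.5, 32.8 and 36.3 TPM without 4OHT and at 23.7, 19.1 and 20.2 TPM with 4OHT, without overlap (adjusted p = 0.0745, limma-trend with Benjamini-Hochberg adjustment).

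ID proteins act by binding E proteins, the bHLH partners encoded by *Tcf3*, *Tcf4* and *Tcf12*. Of these 3 genes, *Tcf3* rose, and *Tcf4* and *Tcf12* did not pass. Over all tested genes, 3.52% rose, and 3 genes are too few to read against this share. *Tcf3* was at 22.2, 24.2 and 25.5 TPM without 4OHT and at 44.9, 40.9 and 38.8 TPM with 4OHT, with a log2 fold change of 0.78 ± 0.15 (SE; adjusted p = 0.0394, limma-trend with Benjamini-Hochberg adjustment). It lost the call in each of the 6 fits without 1 well (adjusted p 0.0777 to 0.138). The summed ID TPM divided by the summed TPM of the 3 partners was 2.73, 2.86 and 2.03 without 4OHT and 1.86, 1.68 and 1.40 with 4OHT, so that ID transcripts outnumbered those of the partners in every well and by less in the OSKA + 4OHT wells. Of the 7 other direct BMP target genes tested, 0 passed and 1 had an unadjusted p under 0.05, again beside 21.3% of all genes. That gene, *Gata3*, a zinc finger transcription factor gene, was at 1.98, 0.94 and 1.80 TPM without 4OHT and at 4.14, 11.3 and 3.48 TPM with 4OHT, without overlap (adjusted p = 0.146, limma-trend with Benjamini-Hochberg adjustment).

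The target genes of SMAD2 and SMAD3, among which *Smad7* was listed, had the largest share of falls among the 8 lists. Of 10 tested, 4 fell, 0 rose, and 9 had a log2 fold change below 0. Over all tested genes, 1.97% fell, 3.52% rose, and 6253 of 15382 had a log2 fold change below 0. *Ccn2*, which encodes connective tissue growth factor, was at 823, 751 and 662 TPM without 4OHT and at 240.4, 273 and 232 TPM with 4OHT (log2 fold change −1.58, adjusted p = 0.00367, limma-trend with Benjamini-Hochberg adjustment), and *Gm15270* on the opposite strand of *Ccn2* was between 3.97 and 19.4 TPM. *Col1a2*, a type I collagen gene, was at 1479.7, 1759 and 1684 TPM without 4OHT and at 932, 1037 and 733 TPM with 4OHT (log2 fold change −0.88, adjusted p = 0.0285, limma-trend with Benjamini-Hochberg adjustment), and its adjusted p stayed under 0.05 in 1 of the 6 fits without 1 well, that without OSKA + 4OHT replicate 3 (0.0450). *Skil*, described above, was also among them. *Smad7* lay at −0.35, with overlapping groups, in the same list.

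**Figure D4:**
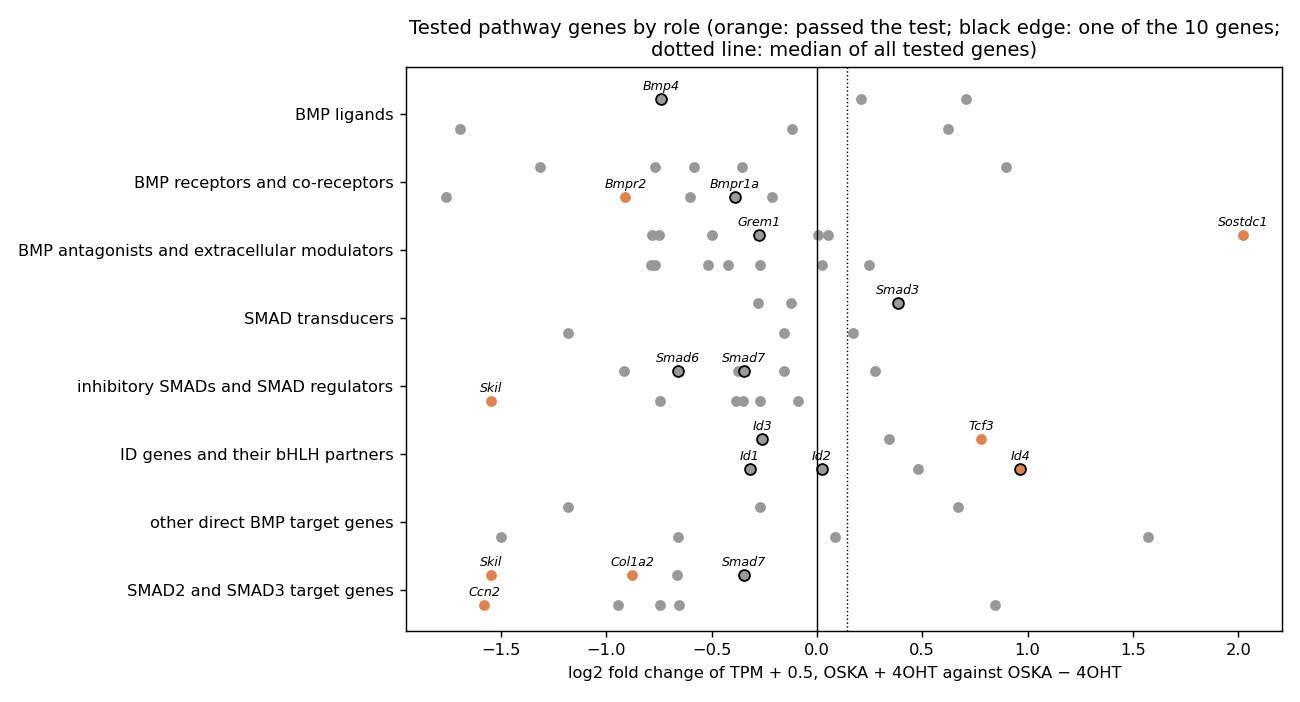
Log2 fold change of TPM + 0.5 of tested pathway genes by role, those reported here, OSKA + 4OHT against OSKA − 4OHT, with genes that passed the test in orange, the 10 members ringed in black and a dotted line at the median of all tested genes, 0.14. The 9 receptor genes and 11 inhibitory SMADs and SMAD regulators below 0 lie to the left, and *Sostdc1*, *Id4* and *Tcf3* are the orange points on the right.

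**Figure D5:**
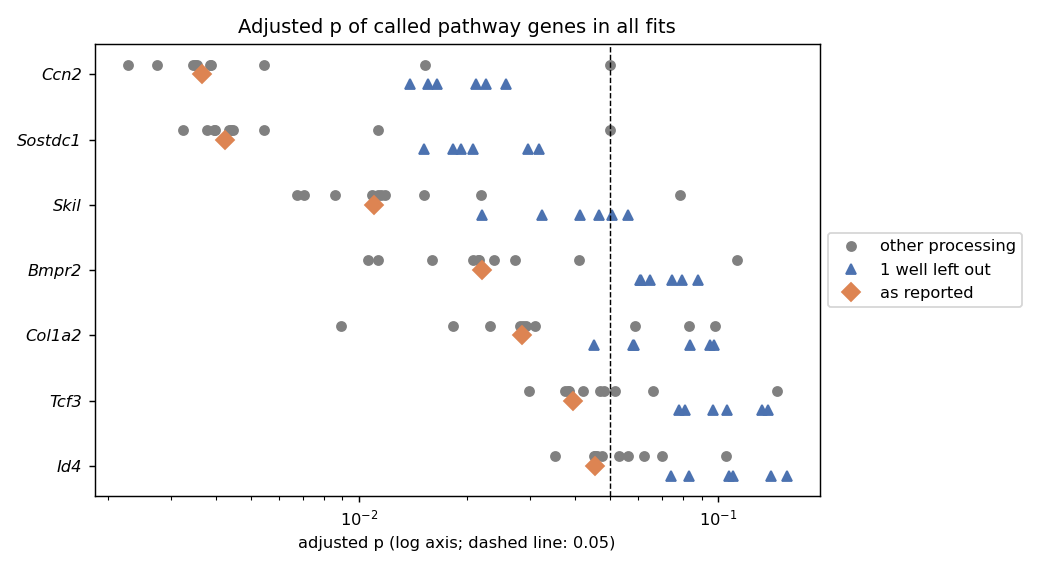
Adjusted p of 7 of the pathway genes that passed, on a log axis, in the fit as reported (diamonds), under 10 other ways of processing (circles) and with 1 well left out (triangles), and a dashed line at 0.05. *Ccn2* and *Sostdc1* stayed below 0.05 in all 16 alternatives, *Id4* in 5 and *Tcf3* in 7.

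Markers of cell types moved between the groups beside these genes. As the label of the cells implies, fibroblast markers were abundant in all wells when summed over 8 genes. The sum was 5973 to 7789 TPM without 4OHT and 3981 to 5236 TPM with 4OHT. Most of it came from *Vim* (means of 3844 and 2668 TPM without and with 4OHT), *Col1a2* (1641 and 901 TPM) and *Col1a1* (979 and 610 TPM). Among the 8, 1 rose (*Lum*) and 2 fell (*Col1a2*, which is also in the SMAD2 and SMAD3 target list, and *Pdgfrb*). Without overlap, 3 were higher with 4OHT (*Lum*, *Dcn* and *Thy1*) and 4 were lower, beside 18.1% and 10.0% of all tested genes. The 5 smooth muscle or myofibroblast markers summed to 892 to 1048 TPM without 4OHT and to 134 to 186 TPM with 4OHT, and 3 of the 5 fell, as did *Ccn2*, *Skil* and *Bmpr2*. Markers that rose with *Id4*, *Sostdc1* and *Tcf3* were 3 of 6 epithelial ones (51.4 to 135 and 256 to 279 TPM summed) and 4 of 7 pluripotent ones (2.87 to 3.69 and 36.5 to 53.6 TPM summed). Of these 4, *Dppa5a*, *Nanog* and *Zfp42* had means of 0, 0.247 and 0.530 TPM without 4OHT and 20.2, 4.04 and 4.30 TPM with it. They reached the filter of 1 TPM only through the OSKA + 4OHT wells, so the count of 4 rests on the rise itself. Over all tested genes, 3.52% rose and 1.97% fell. *Dppa5a*, *Dppa4* and *Utf1* were listed at 0 in all OSKA − 4OHT wells. The 6 macrophage markers summed to 119 to 133 TPM without 4OHT and to 74.3 to 84.8 TPM with 4OHT, with 1 of 6 lower, and of the 6 endothelial markers (21.8 to 28.9 and 28.1 to 37.6 TPM summed) 0 of the 2 tested passed, with *Cdh5*, *Emcn*, *Kdr* and *Tie1* near 0. The part of these cell types in the values of *Id4* and the other genes was not tested.

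The members were also compared with other genes by their pattern over the wells. By the Pearson correlation of log2(TPM + 0.5) over the 6 wells, which share their grouping, among 11035 genes whose mean reached 5 TPM, the genes most alike were *Oxr1*, *Api5* and *Zfp865* for *Id1* (r from 0.985 to 0.987), *Ddit4l*, *Dhx15* and *Gm35419* for *Id2* (0.979 to 0.986), and *Chsy1*, *Slc39a3* and *Fbxo21* for *Id3* (0.986 to 0.995). For *Smad6* they were *Bcl2l1*, *Anxa10* and *Laptm5* (0.976 to 0.981), and for *Grem1* they were *Slc30a7*, *Atxn3* and *Nnmt* (0.993 to 0.998). None of these 15 genes passed the test between the groups. With 6 wells and so many genes searched, such values are a description of these wells only.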

How the data were processed

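The polyA RNA of 6 wells was sequenced by the authors from stranded libraries with single-end reads, trimmed with Trim Galore and quantified with Salmon against the mouse transcriptome. The versions, the annotation release and the strand setting are not given in the sources used here. The values deposited by the authors are TPM per gene, with a sum of 1000000 in every well. TPM keeps no sequencing depth, so the depth per well is unknown and no counting interval is given. A value above 0 was listed for 15814 to 17692 genes in the OSKA − 4OHT wells and for 17578 to 18230 in the OSKA + 4OHT wells, and a listed 0 can be a failed estimate. The authors also deposited the log2 fold change and log2 average level, the F score and the p-value of their own comparison, which were not used. Because TPM is not a count, the count test named in the study's methods was not used.

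GENCODE M21 on GRCm38 gave the symbols and positions, and 54097 of 54331 genes had one. Differences were tested on log2(TPM + 0.5) with limma-trend in limma 3.58.1 and R 4.3.3, without a block, 2-sided, over 15382 genes whose mean reached 1 TPM. A gene passed at a Benjamini-Hochberg adjusted p under 0.05. Fold changes are on this scale, so that changes of low genes come out too small. Ratios within a well were compared by an exact permutation test, and transcripts were searched for similar ones with BLAST 2.17.0. *Id2* matched *Gm6175* at 91.8% over 380 of 1969 bases, and *Gm6175* was listed at 0 in all wells. Other steps used Python 3.11.15 and pandas 2.3.3.

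The members and the lists were chosen with earlier results of these data known. All members were named. A result for some genes under the rule is not reported here. Of the other pathway genes, those that passed were named, and of each list the 2 with the largest log2 fold change without overlap. For *Id1*, *Id2*, *Id3*, *Smad6* and *Grem1*, the 3 most alike genes were named. Alternatives were other pseudocounts (0.1, 1 and 2), no filter, a mean of at least 5 TPM, other scalings and variance models, a replicate block, and leaving out each well.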

Additional observations from a re-analysis of the deposited data

How the results depend on the processing

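Of 158 alternative values of the members, 141 kept their direction and their side of the threshold, 11 (all of *Id4*) kept the direction but no longer passed, and 6 changed sign. The sign of *Id2*, near 0 in all fits, turned under TMM scaling (−0.106) and quantile normalization (−0.084), and without OSKA − 4OHT replicate 1 (−0.042), OSKA + 4OHT replicate 1 (−0.001) or OSKA + 4OHT replicate 2 (−0.012), in a range of −0.042 to 0.101 without 1 well. That of *Smad7* turned without OSKA + 4OHT replicate 2, in a range of −0.649 to 0.062. The count of members that passed, and that passed higher, was 0 with no filter on low values, under both scalings, with no trend in the variance, with the replicate block and in each fit without 1 well. The cause of these losses was not tested.

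Over all genes, 47 passed with the replicate block (31 higher and 16 lower), and without 1 well the total was 175 to 465, with 112 to 318 higher and 63 to 147 lower, the fewest without OSKA + 4OHT replicate 1. TMM scaling gave 477 lower. Of the pathway genes, 13 passed under that scaling (11 lower), 9 were lower and 1 higher after quantile normalization, 1 was higher with no trend, and 3 passed with the replicate block (1 higher and 2 lower). Without 1 well, 3 to 5 pathway genes passed, with 1 higher and 2 to 4 lower. TPM hides the depth, which limits low genes such as *Bmp4* and *Smad6*.

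Replicate numbers were checked for pairing. The deviations of same-numbered wells from their group means correlated at 0.02, 0.03 and 0.08 across genes for replicates 1, 2 and 3. The value for replicate 3 was the highest of all pairs of wells, while OSKA + 4OHT replicate 1 correlated best with another number (0.03). With so few wells, correlations this small do not settle whether the wells were paired. With the replicate block the adjusted p of *Id4* was 0.105 (limma-trend, Benjamini-Hochberg). The calls of *Skil*, *Col1a2*, *Bmpr2* and *Tcf3* were also lost with the block (adjusted p = 0.0786, 0.0983, 0.113 and 0.146, limma-trend, Benjamini-Hochberg).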
